A study of Mus musculus with 27 samples.

Results

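The genes of the TGF-beta and BMP family were examined in whole mouse embryos lacking DNMT3B, a de novo DNA methyltransferase. The members were the genes of the expression table whose symbols begin with Bmp, Bmpr, Gdf, Tgfb, Tgfbr, Inhb, Acvr or Smad followed by a number, or by a letter and a number, and the 4 Inhb genes that carry a letter alone were included. The rule found 51 of the 24065 genes in the table. Of these, 27 encode ligands, 13 encode receptors or co-receptors and 8 encode Smad proteins, while 3 share the family's name only. Bmper, Tgfbi and Tgfbrap1 lay just outside the rule by their names.

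Ligands of this family are secreted as pairs of chains and bring together type II and type I receptor kinases on the cell surface, and the type I kinase then phosphorylates receptor-activated Smads. TGF-beta, activin and Nodal type ligands act mainly through Smad2 and Smad3, and BMP type ligands through Smad1, Smad5 and Smad9, and both sets join the common partner Smad4 to enter the nucleus. Smad6 and Smad7 inhibit the pathway. In the early embryo these signals pattern the germ layers, the left-right axis, the heart, the neural tube and the tail.

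The study mapped DNA methylation through mouse development and sequenced RNA to ask how expression follows the loss of DNMT3B. RNA was sequenced from 3 wild type (WT) and 3 Dnmt3b-/- littermate embryos of C57BL/6J background at embryonic day 8.5 (E8.5), each embryo a library of its own. The mutants came from crosses of heterozygous mice whose floxed Dnmt3b had been deleted by an ACTB-Cre deleter line, so that the catalytic exons are missing in all cells, and neither genotype received any treatment. The labels give no litter or sex for an embryo. Methylation was not analysed here.

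The libraries held between 41489332 and 58470286 counts. Dnmt3b itself was counted over all of its exons and had 7287, 14003 and 6301.0 normalized counts in WT embryos 1, 2 and 3 against 4076, 4557 and 4756 in Dnmt3b-/- embryos, for a log2 fold change of -1.04 (SE 0.27, adjusted p = 0.0169, edgeR). Every Dnmt3b-/- embryo lay under every WT embryo. Without WT embryo 2 the value was -0.61, it lay between -1.25 and -0.61 over 13 alternative fits with adjusted p from 0.0026 to 0.0617, and the call was lost without Dnmt3b-/- embryo 1 (-0.97), 2 (-1.06) or 3 (-1.08) and after a correction for base content described below (-0.85). Normalized counts are raw counts divided by the relative library size after TMM scaling. Markers of heart, somites, neural tube and of tailbud with notochord were all detected in all libraries, and of these 16 markers Tnnt2 (log2 fold change 0.62), Tcf15 (1.14), Sox1 (0.54), Pax6 (0.85) and Shh (0.83) were higher in Dnmt3b-/- embryos and Nkx2-5 (-0.79) and Sox2 (-0.48) lower. The 8 yolk sac endoderm markers all had negative log2 fold changes, with a median of -1.20, and 1 of them passed (Amn, -2.59). This shared direction depended on WT embryo 2. Without that embryo Apoa1 was 0.33, the other yolk sac endoderm markers lay between -1.31 (Amn) and -0.07 (Rbp4), and none passed. The 7 embryo markers named, of 16, stand beside 35.7% of all genes tested that passed. Without WT embryo 2 these 7 kept their direction and passed. Over the 6 fits that each left out 1 embryo, Tcf15, Sox2 and Shh passed in 6, Nkx2-5 in 5, Tnnt2 in 4, and Sox1 and Pax6 in 3. After the correction for base content described below, Nkx2-5 (-0.01), Sox2 (-0.37) and Pax6 (0.79) no longer passed. Tnnt2, Tcf15, Sox1 and Shh passed as higher in that fit. WT embryo 2 stood apart: the summed level of 8 yolk sac endoderm markers was 179534 normalized counts in it against 11320 to 56954 in the other 5 embryos, and its sum over 6 primitive erythroid markers was the lowest at 12018 against 15329 to 67628. Of 8 trophoblast and decidua markers, 4 (Prl3d1, Prl8a2, Prl2c2 and Tpbpa) had no count in any embryo. Among the 42 members tested, WT embryo 2 was the lowest of all 6 embryos for 15 and the highest for 7. Dnmt3b-/- embryo 3 was the highest for 13, and Dnmt3b-/- embryo 2 was the lowest for 9. The part of these markers' tissues in the differences below was not tested.

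Because the study concerns promoter methylation, the 250 bases before the start of a ligand, a receptor and a Smad that were higher in Dnmt3b-/- embryos are shown. Each window lies outside the annotated span of its own gene. They were taken from the RefSeq annotation of GRCm38.p6 (mm10) at chr10:128891719-128891968 (minus strand) for Gdf11, chr1:59764029-59764278 (plus strand) for Bmpr2 and chr8:79399429-79399678 (minus strand) for Smad1, with CG dinucleotides in capitals.
Gdf11: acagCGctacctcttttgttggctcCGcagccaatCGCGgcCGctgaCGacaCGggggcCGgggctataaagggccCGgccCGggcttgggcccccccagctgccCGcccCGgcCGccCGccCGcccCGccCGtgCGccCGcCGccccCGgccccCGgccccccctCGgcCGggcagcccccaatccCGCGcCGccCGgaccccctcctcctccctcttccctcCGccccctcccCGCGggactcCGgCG
Bmpr2: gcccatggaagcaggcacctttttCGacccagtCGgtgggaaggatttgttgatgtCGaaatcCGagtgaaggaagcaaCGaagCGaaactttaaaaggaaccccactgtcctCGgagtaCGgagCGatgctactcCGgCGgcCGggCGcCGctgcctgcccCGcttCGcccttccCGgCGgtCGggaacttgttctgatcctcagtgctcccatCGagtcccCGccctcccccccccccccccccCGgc
Smad1: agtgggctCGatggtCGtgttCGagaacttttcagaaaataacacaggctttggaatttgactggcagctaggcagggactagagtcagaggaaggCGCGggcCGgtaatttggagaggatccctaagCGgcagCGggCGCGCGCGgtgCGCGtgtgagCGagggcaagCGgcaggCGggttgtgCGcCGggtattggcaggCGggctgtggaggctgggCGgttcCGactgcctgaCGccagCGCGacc

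All of these windows were rich in CG. The Gdf11 window held 33 CG dinucleotides and the Bmpr2 and Smad1 windows held 22 and 25, against a median of 6 over the 32851 windows of the table. The window of Acvr2b, a receptor that was lower in Dnmt3b-/- embryos, held 24 and lies within the annotated span of that gene. A window was found for 36 of the 51 members, and the median over their 44 windows was 18.5 CG dinucleotides and 63.4% GC, against 52.4% GC over all windows. Of the motifs described for Smad binding, GGCGCC, which reads the same on both strands, was in 7 of the 44 windows, that of Bmpr2 included, and in 9.59% of all windows. The palindrome GTCTAGAC was in 0 of the 44 windows and in 0.167% of all windows. A match of letters is a description and not a bound site.

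Levels were compared between genes as FPKM, a count scaled to library size and gene length, computed here from normalized counts and the exonic length. The type I receptors Bmpr1a and Tgfbr1 were the most abundant members. Bmpr1a, which binds BMPs, reached 46.9 ± 1.75 FPKM and Tgfbr1, the type I receptor of TGF-beta, 40.6 ± 4.08 FPKM (SD, n = 3 WT embryos). The other type I receptors lay between 0.03 (Acvr1c) and 5.22 FPKM (Acvr1b) in WT embryos. The most abundant Smads were Smad3 with 21.2 ± 2.52, Smad4 with 16.9 ± 0.372 and Smad1 with 15.4 ± 1.13 FPKM in WT embryos. Ligands were lower, led by Bmp4 with 14.4 ± 2.18, Bmp7 with 8.83 ± 0.253 and Bmp5 with 8.41 ± 1.78 FPKM. The levels of Bmp7 and Bmp5 differed by less than their spread.

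**Figure D1:**
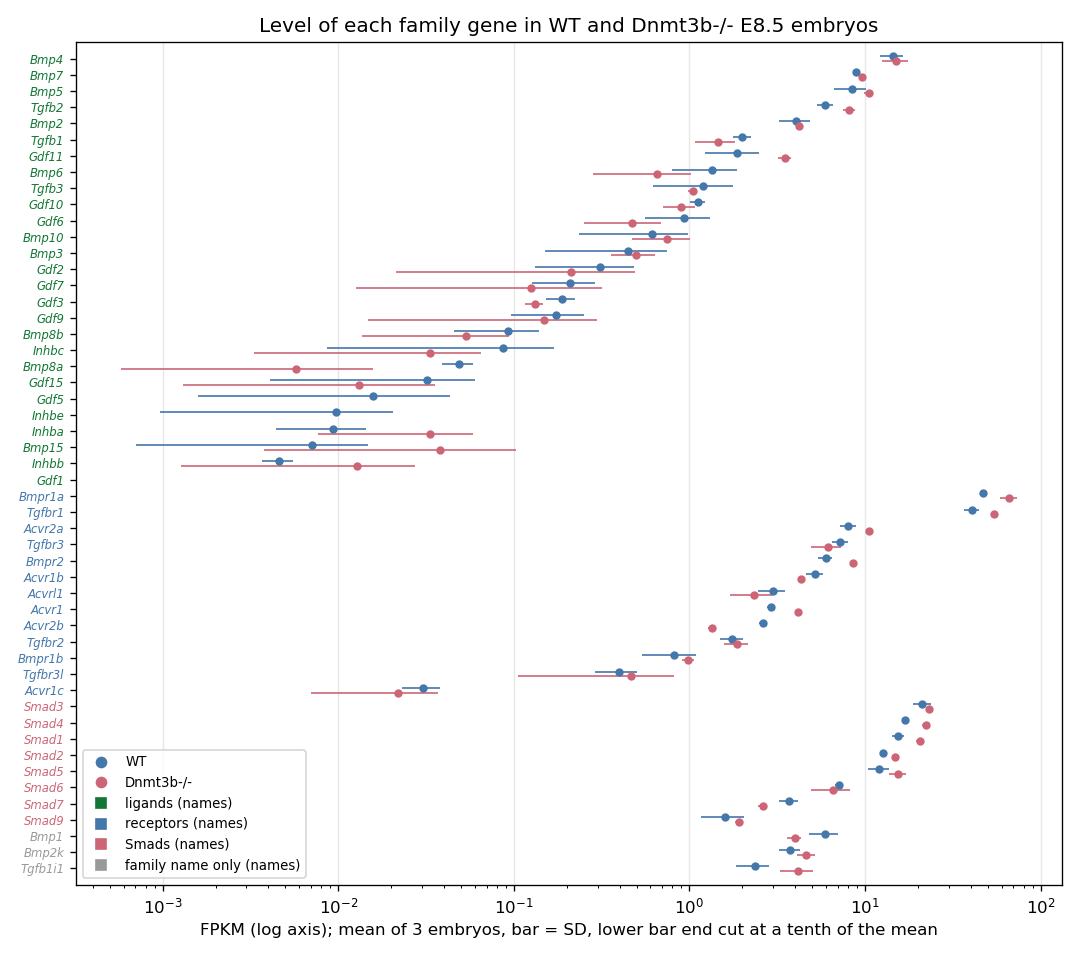
FPKM of the 51 family genes on a log axis, as the mean of 3 WT (blue) and 3 Dnmt3b-/- (red) embryos with the SD as a bar, whose lower end is cut short of 0 for the log axis. Ligands, receptors, Smads and genes of the family name only are ordered by their WT level, a mean of 0 has no point, and Bmpr1a at 46.9 FPKM in WT embryos is the highest.

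A gene was tested when it averaged at least 10 raw counts over the 6 embryos. All receptors, Smads and genes of the family name only passed this filter, as did 18 of the 27 ligands. The 9 ligands below it were Bmp8a, Bmp15, Gdf1, Gdf5, Gdf15, Inhba, Inhbb, Inhbc and Inhbe, with means of at most 6.5 counts, and they were not tested. The limit that a count of 0 allows, 3 counts, was 2.377 to 3.502 normalized counts per library for counting error only. Gdf1 had no count in any embryo, and 99.9% of its exonic length is shared on the same strand with Cers1, whose transcript carries both reading frames, so that its level is uncertain. Bmp8a and Bmp8b are close copies, between which reads can be lost.

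Of the 42 members tested, 15 passed an adjusted p below 0.05 in edgeR's quasi-likelihood test with Benjamini-Hochberg adjustment over all 15114 genes tested, which was 35.7% of the members and 35.7% of all genes tested. In Dnmt3b-/- embryos 12 members were higher (28.6%, against 17.6% of all genes) and 3 were lower (7.14%, against 18.1%). The genotypes did not overlap for 18 of the 42 members, of which 13 were higher. Over all genes tested 51.8% did not overlap, 7829 of 15114, of which 3825 were higher. In such whole-embryo RNA, fewer cells that use a gene and less RNA per cell cannot be told apart. Without WT embryo 2 the counts were again 12 higher and 3 lower (17% and 17.6% of all genes), and 13 of the 15 members passed in both fits.

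The changes were small. The study's own call also asks for a fold change above 2, and 0 members reached this against 5.9% of all genes. With an unadjusted p below 0.05 in place of the adjusted one, 1 member did (Bmp6), against 7.3% of all genes, and by DESeq2 the same 1 member passed both thresholds, against 6.34%. The median log2 fold change, Dnmt3b-/- over WT, was 0.11 over the members tested, -0.21 over ligands, 0.20 over receptors and 0.25 over Smads, against -0.03 over all genes tested. Scaling by total counts put the median of all genes at -0.11 and those of ligands, receptors and Smads at -0.29, 0.11 and 0.17. The ligand median turned positive with a filter of 50 counts (0.06) and without WT embryo 3 (0.02). The receptor median was 0.02 without WT embryo 2 and 0.04 after a correction for base content described below, and the median of all members was 0.02 without WT embryo 2, while the Smad median stayed between 0.17 and 0.30 over the 13 alternative fits.

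**Figure D2:**
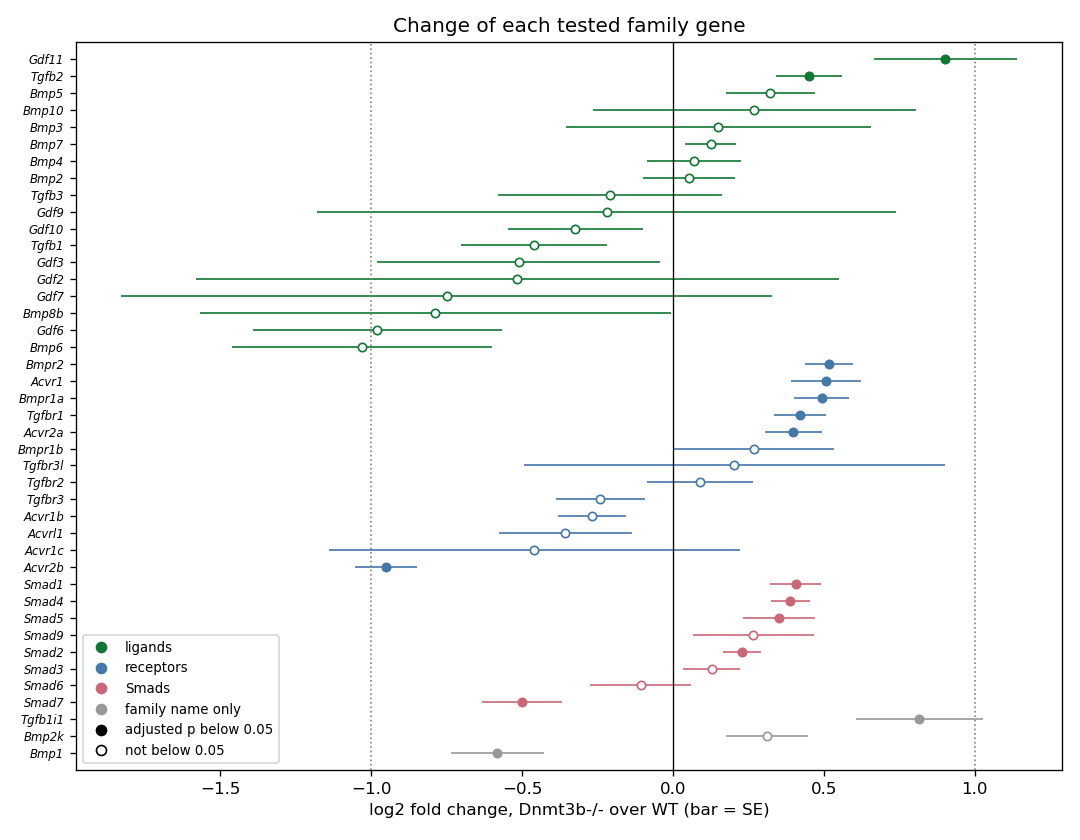
log2 fold change, Dnmt3b-/- over WT, of the 42 tested family genes with its SE as a bar, by role. Filled points have an adjusted p below 0.05, and dotted lines mark a 2-fold change: Acvr2b (-0.95) and Gdf11 (0.90) come closest to these lines among the filled points.

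Base content moved with the direction of change over the whole table and within the family. The median GC content of the exons was 46.7% for the 12 members that were higher and 57.6% for the 3 that were lower, and the same held over all genes tested, with 45.0% for the higher and 55.7% for the lower. Each change was therefore fitted again with the trends of each library along exon GC content and exon length taken out, a fit in which 23.3% of all genes passed (12.5% higher and 10.8% lower). In it 10 members passed (9 higher and 1 lower), of which 7 were among the 15 and kept their direction: Acvr1, Acvr2b, Gdf11, Tgfb2, Smad1, Smad4 and Tgfb1i1. Bmp7, Smad3 and Smad6 passed only in that fit, each as higher. Whether base content or the genotype sets the other 8 changes was not tested.

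**Figure D3:**
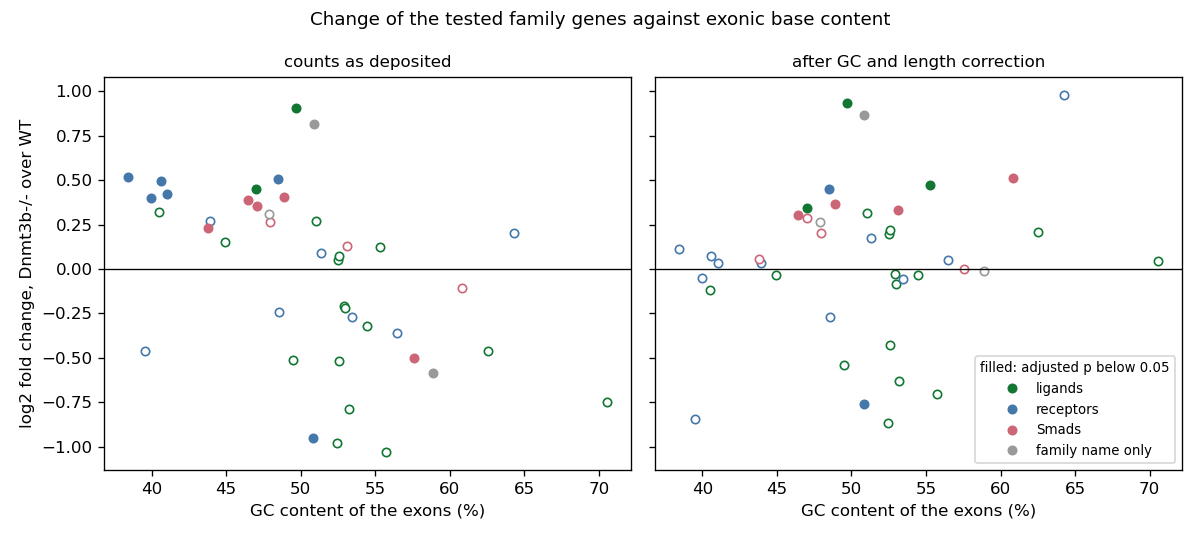
log2 fold change, Dnmt3b-/- over WT, of the tested family genes against the GC content of their exons in percent, from the counts as deposited (left) and after the correction for GC content and length (right). Filled points passed an adjusted p below 0.05: 15 of 42 on the left and 10 on the right, where Bmpr2, Acvr2a, Bmpr1a and Tgfbr1, with exons of at most 41.04% GC, lie between -0.05 and 0.11.

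Among the TGF-beta and activin type ligands, Gdf11 and Tgfb2 rose and the other 3 tested did not pass, so that 40% passed against 35.7% of all genes. Gdf11, a relative of myostatin that patterns the trunk-to-tail axis, had 577, 326 and 668 normalized counts in WT embryos 1, 2 and 3 and 893, 982 and 1071 in Dnmt3b-/- embryos. All Dnmt3b-/- embryos lay above all WT embryos, and WT embryo 2 was the lowest. The log2 fold change was 0.90 (SE 0.24, adjusted p = 0.0193), a 1.87-fold rise, and it was 0.93 after the GC correction. Without WT embryo 2 it was 0.66 and still passed, whereas without Dnmt3b-/- embryo 2 or 3 it was 0.90 and 0.85 and no longer passed, with adjusted p between 0.000437 and 0.0624 over the 13 alternative fits.

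Tgfb2, a TGF-beta ligand of the developing heart and other tissues, had 1664, 1357 and 1439 normalized counts in WT embryos and 2024, 1885 and 2192 in Dnmt3b-/- embryos. The groups did not overlap. The log2 fold change was 0.45 (SE 0.11, adjusted p = 0.0138), and it passed in all 13 alternative fits. The sister ligands Tgfb1 and Tgfb3 had log2 fold changes of -0.46 (SE 0.24, adjusted p = 0.174) and -0.21 (SE 0.37, adjusted p = 0.698), with overlapping groups. Gdf3, a Nodal-like ligand with 11.7 to 21.4 normalized counts per embryo, had -0.51 (SE 0.47, adjusted p = 0.43). That Tgfb2 changed differently from its sisters was not tested.

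The BMP type ligands showed no call: of 10 tested, 0 passed in edgeR, against 35.7% of all genes. An unadjusted p below 0.05 was found for 2 of them, against 6915 of the 15114 genes tested. By DESeq2 1 passed, against 41.1% of all genes. Bmp4, which acts in mesoderm, the primordial germ cells and the dorsal neural tube, had 1173, 1557 and 1539.8 normalized counts in WT and 1366, 1332 and 1788 in Dnmt3b-/- embryos. The genotypes overlapped, and the log2 fold change was 0.07 (SE 0.16, adjusted p = 0.753). Bmp7, which acts with Bmp4 in many embryonic tissues, had 1574, 1598 and 1512 in WT and 1707, 1674 and 1726 in Dnmt3b-/- embryos. These did not overlap, at a log2 fold change of 0.13 (SE 0.08, adjusted p = 0.279) that became 0.47 after the GC correction and then passed.

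Bmp5, a ligand of skeletal and heart development, had 1436, 1921 and 1294 normalized counts in WT and 1813, 1977 and 2024 in Dnmt3b-/- embryos. WT embryo 2 was within the range of the mutants, and the log2 fold change of 0.32 (SE 0.15, adjusted p = 0.124) became 0.50 and passed without that embryo, but -0.12 after the GC correction. Bmp2, required for the heart and the amnion, had 577 to 845 in WT and 709 to 727 in Dnmt3b-/- embryos and a log2 fold change of 0.05 (SE 0.15). These tests do not show that the ligands stayed level.

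The most negative estimates of the family belonged to Bmp6 and Gdf6. Bmp6, later known for iron regulation, had 155, 282 and 142 normalized counts in WT and 155, 61.9 and 64.6 in Dnmt3b-/- embryos, for a log2 fold change of -1.03 (SE 0.43, adjusted p = 0.0964). Gdf6, a ligand of joint and eye development, had 116, 233 and 128 in WT and 120.2, 73.5 and 46.5 in Dnmt3b-/- embryos, for a log2 fold change of -0.98 (SE 0.41, adjusted p = 0.0982). In both, WT embryo 2 was the highest and Dnmt3b-/- embryo 1 lay among the WT embryos. Without WT embryo 2 the log2 fold changes were -0.65 and -0.60, and without Dnmt3b-/- embryo 1 they were -1.59 and -1.39 and passed.

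The other ligands tested were scarce, with means of at most 201 normalized counts per genotype. Bmp3 and Gdf10, ligands outside the main branches, had log2 fold changes of 0.15 (SE 0.51) and -0.32 (SE 0.22), and Gdf9, a ligand of the oocyte, had -0.22 (SE 0.96). Bmp10, a ligand of the heart, ranged from 17.2 to 64.6 normalized counts over all embryos with a log2 fold change of 0.27 (SE 0.54). Gdf2, also called BMP9 and made by the liver, ranged from 0 to 75.2 with -0.52 (SE 1.07), Gdf7 of the dorsal neural tube from 0 to 23.8 with -0.75 (SE 1.08), and Bmp8b from 1.1 to 20.6 with -0.79 (SE 0.78). None of these 7 passed, and Gdf7 passed only without Dnmt3b-/- embryo 3.

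Among the 13 receptors and co-receptors, 5 rose and 1 fell, so that 46.2% passed against 35.7% of all genes. Bmpr1a had 12414, 12818 and 11898 normalized counts in WT embryos 1, 2 and 3 and 15640, 17099 and 19555 in Dnmt3b-/- embryos. Tgfbr1 had 12505, 10420.1 and 12429 in WT and 15240, 15952 and 16177 in Dnmt3b-/- embryos. Both were higher in every Dnmt3b-/- embryo, with log2 fold changes of 0.49 (SE 0.09, adjusted p = 0.00434) and 0.42 (SE 0.09, adjusted p = 0.00657). They passed without any single embryo. After the GC correction they were 0.07 and 0.03 and no longer passed, at exonic GC contents of 40.6% and 41.04%.

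Acvr1, a type I receptor of BMPs also known as ALK2, had 479, 509 and 455 normalized counts in WT and 674, 691 and 687 in Dnmt3b-/- embryos. The gap between the groups was wide against the spread within them. Its log2 fold change of 0.51 (SE 0.11, adjusted p = 0.0102) was 0.45 after the GC correction, and it passed in all 13 alternative fits. The other type I receptors did not pass. Acvr1b, a receptor of activin and Nodal, had 1044, 1252 and 1032 in WT and 916, 954 and 890 in Dnmt3b-/- embryos, for a log2 fold change of -0.27 (SE 0.11, adjusted p = 0.0982) without overlap, and it passed as lower only with total-count scaling. Acvrl1, an endothelial receptor, had -0.36 (SE 0.22), Bmpr1b, a BMP receptor of limb and neural tissue, had 0.27 (SE 0.26), and the scarce Acvr1c, with 2.3 to 16.8 normalized counts per embryo, had -0.46 (SE 0.68).

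The type II receptors held the rise and the fall with the smallest p-values of the family, those of Bmpr2 and Acvr2b. Acvr2b, which binds activins, Nodal and GDF11, had 1345, 1271 and 1409.8 normalized counts in WT embryos and 737, 668 and 678 in Dnmt3b-/- embryos. The lowest WT embryo stood far above the highest Dnmt3b-/- embryo. The log2 fold change was -0.95 (SE 0.10, adjusted p = 0.000717), to 0.517 of the WT level, and it lay between -1.03 and -0.76 over the 13 alternative fits, in all of which it passed.

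Its close relative Acvr2a, which binds many of the same ligands, had 2326, 1934 and 2325 normalized counts in WT and 2989, 2756 and 2944 in Dnmt3b-/- embryos, and rose by a log2 fold change of 0.40 (SE 0.10, adjusted p = 0.0128). Bmpr2, the type II receptor of BMPs, had 3512, 3054 and 2976 in WT and 4381, 4618 and 4666 in Dnmt3b-/- embryos, for a log2 fold change of 0.52 (SE 0.08, adjusted p = 0.00213). Neither overlapped between genotypes, and both passed without any single embryo. Their exons were the poorest in GC among the members that passed (40.0% and 38.4%), and after the GC correction the values were -0.05 for Acvr2a, a change of direction, and 0.11 for Bmpr2. Of the exonic length of Acvr2a, 7.7% lies opposite exons of Orc4. Tgfbr2, the type II receptor of TGF-beta, had 0.09 (SE 0.18, adjusted p = 0.72), with 338 to 448 normalized counts in WT and 388 to 509 in Dnmt3b-/- embryos. The co-receptor Tgfbr3, or betaglycan, had -0.24 (SE 0.15), and Tgfbr3l, with 5.0 to 42.0 normalized counts, had 0.20 (SE 0.70).

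Among the 8 Smads 4 rose and 1 fell, so that 62.5% passed against 35.7% of all genes. Smad4, the common partner, had 6198, 6068 and 6342 normalized counts in WT and 8042, 7838 and 8485 in Dnmt3b-/- embryos. Smad1, activated by BMP receptors, had 2142, 2428 and 2146 in WT and 2826, 2976 and 3101 in Dnmt3b-/- embryos. Both were higher in every mutant, with log2 fold changes of 0.39 (SE 0.07, adjusted p = 0.00295) and 0.41 (SE 0.08, adjusted p = 0.00706). They passed in all 13 alternative fits, at 0.30 and 0.36 after the GC correction.

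Smad5 and Smad2 rose less securely. Smad5, the partner of Smad1 in BMP signaling, had 4423, 3511 and 4535 normalized counts in WT and 4684, 5378 and 5858 in Dnmt3b-/- embryos, for a log2 fold change of 0.35 (SE 0.12, adjusted p = 0.0484). Smad2, activated by TGF-beta and Nodal type receptors, had 5683, 5389 and 5604 in WT and 6348, 6641 and 6568 in Dnmt3b-/- embryos, for a log2 fold change of 0.23 (SE 0.06, adjusted p = 0.0222). Neither overlapped. Without WT embryo 2 both lost the call, at 0.24 and 0.21, and so they did without WT embryo 1 (0.40 and 0.24) and Dnmt3b-/- embryo 2 (0.34 and 0.22), while Smad5 also lost it without Dnmt3b-/- embryo 3 (0.29) and Smad2 without WT embryo 3 (0.23). After the GC correction they were 0.29 and 0.06, and over the 13 alternative fits adjusted p ran from 0.0129 to 0.134 for Smad5 and from 0.00332 to 0.545 for Smad2.

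The other receptor-activated Smads did not pass. Smad3, the most abundant Smad, had 5549, 4486 and 5565 normalized counts in WT and 5899, 5555 and 5604 in Dnmt3b-/- embryos, for a log2 fold change of 0.13 (SE 0.09, adjusted p = 0.319) that became 0.33 after the GC correction and then passed. Smad9 had 393, 537 and 312 in WT and 475, 494 and 525 in Dnmt3b-/- embryos, at 0.27 (SE 0.20, adjusted p = 0.335), and it passed without WT embryo 2 at 0.50.

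Of the inhibitory pair, Smad7 fell. It had 847, 849.7 and 679 normalized counts in WT and 574, 524 and 583 in Dnmt3b-/- embryos, without overlap, and a log2 fold change of -0.50 (SE 0.13, adjusted p = 0.0193). Smad6, which acts mainly on BMP signaling, had 1036, 1041 and 962 in WT and 1207, 777 and 837 in Dnmt3b-/- embryos, at -0.11 (SE 0.17, adjusted p = 0.657). The exons of both are rich in GC (57.6% and 60.8%), and after the correction Smad7 stood at 0.00 and Smad6 at 0.51, where it passed as higher. Smad7 also lost its call without WT embryo 1 (-0.45) and without Dnmt3b-/- embryo 2 (-0.45), with adjusted p from 0.00633 to 0.996 over the 13 alternative fits.

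The 3 genes that carry the family's name without being a ligand, receptor or Smad moved in both directions. Tgfb1i1 encodes Hic-5, a focal adhesion protein, and had 490.5, 334 and 502 normalized counts in WT and 933, 804 and 603 in Dnmt3b-/- embryos, for a log2 fold change of 0.82 (SE 0.21, adjusted p = 0.0176) that was 0.87 after the GC correction. Bmp1, a protease that matures collagen and cleaves the BMP antagonist chordin, had 1535, 1046 and 1366 in WT and 939, 914 and 785 in Dnmt3b-/- embryos, at -0.58 (SE 0.15, adjusted p = 0.0197). The genotypes overlapped in neither. Tgfb1i1 lost its call without Dnmt3b-/- embryo 1 (0.68) or 2 (0.80), with adjusted p from 0.000589 to 0.0631 over the 13 alternative fits. Bmp1 lost its call without WT embryo 1 (-0.46) or 3 (-0.56) or Dnmt3b-/- embryo 2 (-0.61) or 3 (-0.49) and was -0.01 after the GC correction, with adjusted p from 0.00224 to 0.954. Bmp2k, a kinase induced by BMP2, had 1296, 994 and 1257 in WT and 1604, 1514 and 1285 in Dnmt3b-/- embryos, with overlap, at 0.31 (SE 0.14, adjusted p = 0.109), and 18.0% of its exonic length lies opposite exons of Paqr3.

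**Figure D4:**
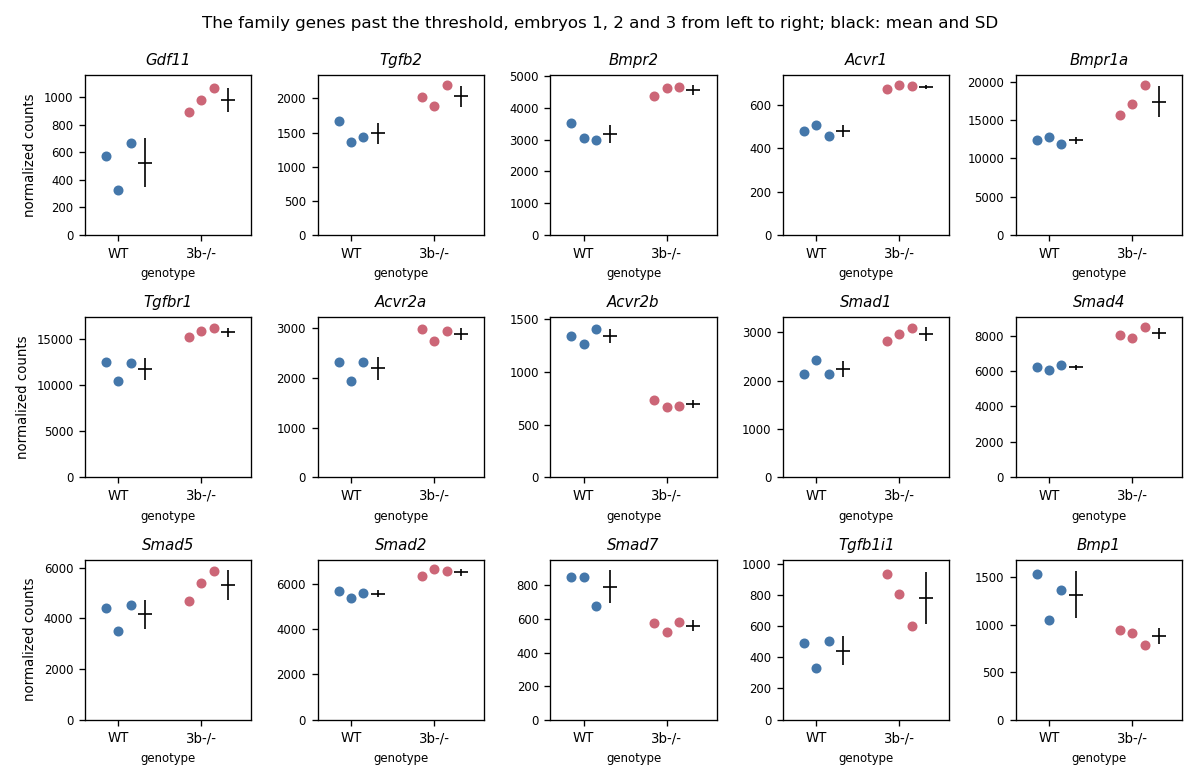
Normalized counts of the 15 family genes with an adjusted p below 0.05, each point 1 embryo (embryos 1, 2 and 3 from left to right), WT in blue and Dnmt3b-/- (3b-/-) in red, with the mean and SD of 3 embryos in black. The genotypes overlap for none of the 15, which were chosen by p-values from these same embryos, and 51.8% of all genes tested do not overlap. Acvr2b shows the deepest drop, from 1271 or more to 737 or less.

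The other genes of the pathway were taken from a list of 72 antagonists, co-receptors, proteases, Smad partners and targets, of which 66 were tested. Of these 9 rose and 10 fell, 28.8% against 35.7% of all genes, with a median log2 fold change of -0.01. Among 14 Smad partners 5 rose and 4 fell (64.3%), while of 8 co-receptors and decoys 0 passed in edgeR, with 1 at an unadjusted p below 0.05 and 1 in DESeq2. Without WT embryo 2 the list had 9 genes higher and 9 lower. Over the fits on 5 embryos the counts ran from 4 to 10 higher and from 4 to 9 lower, with 4 and 4 without Dnmt3b-/- embryo 2, 4 and 7 without WT embryo 1, 5 and 8 without WT embryo 3, 5 and 6 without Dnmt3b-/- embryo 3 and 10 and 8 without Dnmt3b-/- embryo 1. Over the same fits 23.7% to 35.4% of all genes passed, the fewest without Dnmt3b-/- embryo 2.

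Among targets of the pathway 1 rose and 3 fell of 14, 28.6% against 35.7% of all genes. Id3, an inhibitor of differentiation and a classic BMP target, had 3732, 3206 and 4082 normalized counts in WT and 1740.5, 1681 and 1502 in Dnmt3b-/- embryos, for a log2 fold change of -1.16 (SE 0.11, adjusted p = 0.000506). Junb, an AP-1 factor induced by TGF-beta and BMP as by many other signals, had 655, 851 and 574 in WT and 138, 204 and 237 in Dnmt3b-/- embryos, at -1.84 (SE 0.24, adjusted p = 0.00115). Both fell in every mutant and passed in all 13 alternative fits, at -0.79 and -1.15 after the GC correction. Id1, the BMP target most like Id3, had 2730 to 3153 in WT and 2895 to 3220.1 in Dnmt3b-/- embryos, at 0.05 (SE 0.09). After the GC correction Id1 was 0.35 and passed as higher. Id2 and Id4 had log2 fold changes of -0.21 and 0.46 and did not pass. After the GC correction Id2 was -0.58 and passed as lower, and Id4 was 0.16. Id1, Id2 and Id4 are named here after their values were seen. Msx1, a homeobox target of BMP, fell by 0.56 on the log2 scale (SE 0.15, adjusted p = 0.0182), but by 0.04 after the GC correction. Ctgf, a target of TGF-beta, rose by 0.61 (SE 0.18, adjusted p = 0.0334), but its call was lost without WT embryo 1 (0.65) or 2 (0.44) or Dnmt3b-/- embryo 2 (0.49) or 3 (0.66). Msx1 lost its call without Dnmt3b-/- embryo 2 (-0.48) or 3 (-0.57).

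Of the Smad regulators and partners, Ski, a repressor that binds Smads, had 4020, 3363 and 3928 normalized counts in WT and 5405, 5225 and 5450 in Dnmt3b-/- embryos, for a log2 fold change of 0.51 (SE 0.08, adjusted p = 0.00249). Trim33, a ubiquitin ligase that acts on Smad4, had 7060, 7191 and 6489 in WT and 9527, 9621 and 11357 in Dnmt3b-/- embryos, at 0.56 (SE 0.09, adjusted p = 0.00244). Tab1, an adaptor of the kinase TAK1, had 821, 726 and 990.3 in WT and 507, 449 and 341 in Dnmt3b-/- embryos, at -0.97 (SE 0.18, adjusted p = 0.00468). The genotypes overlapped for none of them, and each passed in all 13 alternative fits. The other 6 partners that passed did not do so after the GC correction: Smurf2 (0.31, between 0.18 and 0.33 over the 13 alternative fits), Map3k7 (0.29, between 0.10 and 0.35) and Skil (0.28, between -0.08 and 0.34) rose, and Smurf1 (-0.46, between -0.60 and -0.10), Tgif2 (-0.38, between -0.46 and -0.06) and Foxh1 (-1.58) fell. Of these, Smurf2 passed in all 6 fits on 5 embryos, Map3k7 in 5, Tgif2 and Foxh1 in 3, and Skil and Smurf1 in 2. Foxh1, a DNA-binding partner of Smad2 in Nodal signaling, had 2136 in WT embryo 2 against 592 and 605 in the other WT embryos and 320 to 450 in Dnmt3b-/- embryos. Without WT embryo 2 its log2 fold change was -0.69 and still passed. Its call was lost without Dnmt3b-/- embryo 1 (-1.52), 2 (-1.48) or 3 (-1.73).

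Of the Nodal signaling genes, Lefty2, Nodal and Cfc1 were highest in WT embryo 2. Lefty2, a Nodal antagonist, had 1521 normalized counts in it against 10.3 to 25.7 in the other 5 embryos, and Nodal had 80.4 against 14.3 and 12.4 in the other WT embryos. The co-receptor Cfc1 had 319 in it against 42.5 or less. The log2 fold changes of Lefty2 (-4.93, SE 1.82, adjusted p = 0.066), Nodal (-2.36, SE 1.11, adjusted p = 0.132) and Cfc1 (-2.08, SE 0.90, adjusted p = 0.109) thus rest on 1 embryo, and without it they were 0.67, -0.98 and -0.32. The inhibin alpha chain, Inha, had 25.7 to 35.7 in WT and 9.1 to 22.2 in Dnmt3b-/- embryos, at -1.03 (SE 0.49, adjusted p = 0.136). The other co-receptors closest to the threshold were Tdgf1, or Cripto, at 0.71 (SE 0.39, adjusted p = 0.194) and Eng, or endoglin, at -0.46 (SE 0.33, adjusted p = 0.311). Tdgf1 was not highest in WT embryo 2, with 384 normalized counts there against 550 and 440 in Dnmt3b-/- embryos 2 and 3.

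Among secreted antagonists 3 rose and 1 fell of 16 tested, 25% against 35.7% of all genes. Chrdl1 and Grem1, which bind BMPs outside the cell, rose by 0.59 (SE 0.15, adjusted p = 0.0182) and 0.61 (SE 0.20, adjusted p = 0.0445), and Twsg1, a BMP-binding partner of chordin, by 0.18 (SE 0.06, adjusted p = 0.0486). Chrd, which encodes chordin, fell from 44.2 to 111 normalized counts in WT to 24.9 to 44.1 in Dnmt3b-/- embryos, at -1.30 (SE 0.44, adjusted p = 0.0489). These calls lay close to the threshold: Chrdl1 and Chrd passed in 2 and Grem1 and Twsg1 in 1 of the 6 fits on 5 embryos, with log2 fold changes over the 13 alternative fits of 0.23 to 0.73 for Chrdl1, -1.59 to -0.72 for Chrd, 0.46 to 0.74 for Grem1 and -0.03 to 0.21 for Twsg1. Of 11 genes of latency and ligand release 0 rose and 2 fell (18.2%). Furin, a proprotein convertase, had 977, 1327 and 984 in WT and 711, 593 and 403.5 in Dnmt3b-/- embryos, for a log2 fold change of -0.94 (SE 0.22, adjusted p = 0.0109) that was -0.34 after the GC correction and no longer passed. Tll2, a protease like Bmp1, fell from 21.8 to 26.5 to 4.0 to 10.2, at -1.61 (SE 0.54, adjusted p = 0.0462), and passed in 1 of the 6 fits on 5 embryos. Ltbp1, a latent TGF-beta binding protein, did not pass, at -0.24 (SE 0.12, adjusted p = 0.153).

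**Figure D5:**
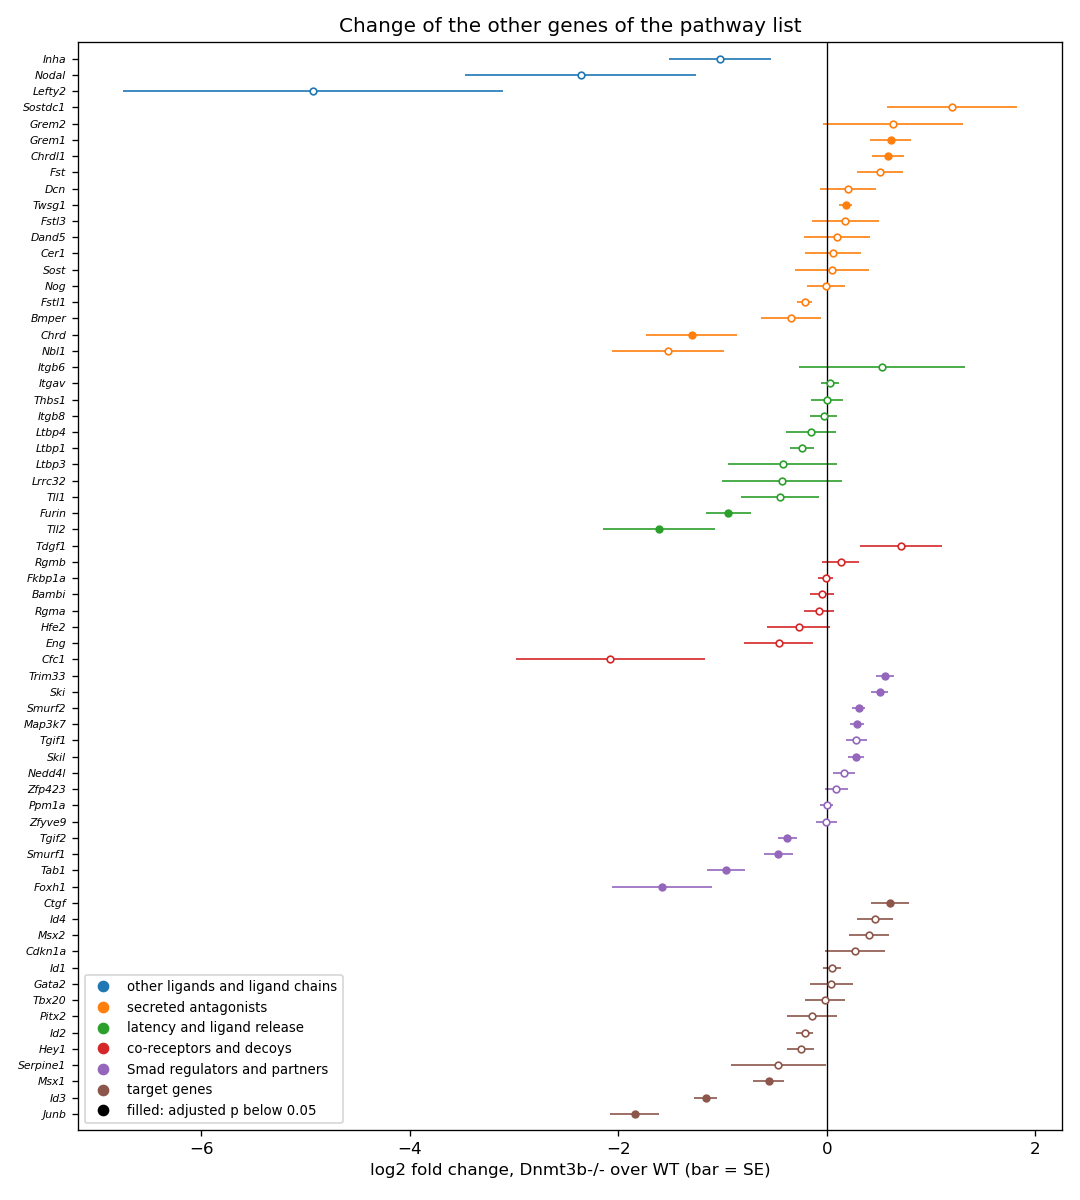
log2 fold change, Dnmt3b-/- over WT, of the 66 tested genes of the pathway list with its SE as a bar, by group. Filled points have an adjusted p below 0.05 (9 higher and 10 lower), and Lefty2, Nodal and Cfc1, each highest in WT embryo 2, are open points with long bars.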

How the data were processed

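RNA-Seq of 3 WT and 3 Dnmt3b-/- whole E8.5 embryos was used, and the other 21 samples of the series, all methylation libraries, entered no comparison. Total RNA was depleted of ribosomal RNA, made into stranded libraries and sequenced as pairs of 75 bases. Per the submitters' processing notes and the study's methods, the authors aligned reads to mm10 with TopHat2 2.0.12 and used HTSeq 0.6.0 to count reads over RefSeq exons, and the raw counts deposited are not normalized. The strand setting and RefSeq release are not given in the sources used here. The authors also deposited a signal, counts divided by DESeq2 1.4.5 size factors, and their own comparison as a log2 fold change and an adjusted p-value, none of which was used.

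Genes averaging 10 or more counts (15114 of 24065) were fitted with edgeR 4.0.16 (R 4.3.3; TMM, glmQLFit, glmQLFTest, genotype only), with Benjamini-Hochberg adjustment over all of them. The SE is the absolute log2 fold change over the square root of F. The script was tested on simulated data. GC content and length came from RefSeq exons of GRCm38.p6, in which 99.2% of genes were matched, and smooth trends with 5 degrees of freedom on each were removed as offsets for the correction. Alternatives were other filters (1 count in all, or a mean of 50), size factors or total counts as scaling, DESeq2 1.42.0, a replicate block, a threshold of 0.01, and each embryo left out. No libraries were duplicates. Replicate numbers were not taken as pairs in the main fit, because the labels give no litter.

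The members and lists were chosen with earlier results of these data known. Values in every embryo are given for members with an adjusted p below 0.05 and, in each role, for the 3 with the highest WT FPKM, and of the pathway list the 3 genes with the smallest adjusted p in each group are named. Others named were chosen after their values were seen. Precision is set by 3 embryos per genotype, and intervals from counts cover counting error only.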

Additional observations from a re-analysis of the deposited data

How the results depend on the processing

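Without any single embryo, 8 to 12 members were higher, 1 to 5 lower and 0 to 2 past 2-fold, and the pathway list had 4 to 10 higher and 4 to 9 lower. In the same fits the share of all genes that passed ran from 23.7% (without Dnmt3b-/- embryo 2) to 35.4% (without Dnmt3b-/- embryo 1), against 35.7% with all embryos. It was 25.1% without WT embryo 1 and 27.4% without Dnmt3b-/- embryo 3. The share past 2-fold ran from 4.18% to 7.64%. At an adjusted p below 0.01, 5 members were higher and 1 lower, with 3 and 3 of the pathway list, against 19.7% of all genes in either direction. The correction for GC content and length left 1 member and 5 pathway genes lower and turned the log2 fold change of Acvr2a to -0.05, of Skil to -0.08 and of Twsg1 to -0.029. With total counts as scaling 1 member was past 2-fold and 5 pathway genes were higher, and with DESeq2 1 member was past 2-fold. Of the 15 members that passed, 15 also passed with either other filter, with size factors and with DESeq2, 13 with total counts and 7 after the GC correction. With the replicate number as a block 10 members were higher and 3 lower, without Smad2 and Smad5, and 4411 of all genes passed against 5395. Same-numbered embryos did not deviate together (r = -0.05, -0.15 and -0.01). The labels give no litter, and whether same-numbered embryos shared a litter or a preparation was not tested. The alternatives for single pathway genes and Dnmt3b were added after seeing the data. The cause of these shifts was not tested. Estimates of ligands near the filter of 10 counts had SEs of up to 1.08 on the log2 scale.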
